A study of Mus musculus with 3 samples.

Results

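The genes described are the core machinery of autophagy as read out in 3 single-cell RNA libraries of mouse spleen CD4+ T cells. They were taken by symbol: every gene whose symbol begins with Atg and a digit, or with Gabarap or Map1lc3, together with *Ulk1*, *Ulk2*, *Ulk3*, *Wipi1*, *Wipi2*, *Becn1*, *Sqstm1*, *Rb1cc1*, *Pik3c3*, *Pik3r4* and *Uvrag*, if it had at least 10 UMIs (unique molecular identifiers, the tags by which captured RNA molecules are counted) over the 3 libraries. All 35 genes with such a symbol passed this minimum, among 13898 genes that did so and 31053 in the feature table. The rule itself uses only symbols and the UMI minimum, but it was set with earlier results of these data known.

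Autophagy encloses cytoplasm in a double membrane, the autophagosome, which is then delivered to the lysosome and degraded. The ULK kinase complex starts the process and is held back by mTORC1 when nutrients and growth signals are plentiful; a class III phosphatidylinositol 3-kinase built on beclin 1 marks the membrane, ATG9 vesicles and ATG2 supply it with lipid, and ubiquitin-like conjugation attaches the ATG8 proteins (LC3 and GABARAP) that draw in cargo. Naive CD4+ T cells depend on autophagy for survival and organelle turnover, and activated T cells use it while they grow under strong mTORC1 signaling. What follows concerns transcripts only, and autophagic flux was not measured in these libraries.

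The mice were C57BL/6 males of 5 to 10 weeks, and all carried the conditional *Ift20* f/f allele. The WT cells came from *Ift20* f/f mice without Cre, and the IFT20-KO cells from *Ift20* f/f CD4 cre mice, in which Cre is driven by *Cd4* regulatory elements and so acts in every T cell lineage that passes through a CD4+ stage in the thymus, not in mature CD4+ cells alone. Cells enriched for naive CD4+ T cells were left in the buffer DPBS for the unstimulated library, which is labeled 0 h. For the CD3/CD28 libraries they spent 24 h with anti-CD3 and anti-CD28 antibodies, each at 1 μg/mL. There is no unstimulated library of 24 h, so the antibodies and the time in culture cannot be told apart. Cells negative for 7AAD, a dye that marks dead cells, and positive for CD3 and CD4 were then sorted. The number of mice per library is not given in the sources used here. Each condition was measured in 1 library, so no value has a replicate, no test was made, and every 95% interval covers counting error only. PCR-duplicated reads are already collapsed in UMIs, but cells of a library are not replicates of its condition.

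The filter left 8031, 9903 and 13920 cells in the unstimulated WT, CD3/CD28 WT and CD3/CD28 IFT20-KO library, with 37133949, 116979076 and 106435143 UMIs in all and medians of 4627, 12167 and 5014.5 UMIs per cell. The autophagy genes together held 1681, 1392 and 1423 counts per 1000000 UMIs (CPM), or 7.77, 16.4 and 10.9 UMIs per cell. The 6 markers of CD4+ T cells summed to 3722, 3283 and 3519 CPM and the 5 naive markers to 3383, 904 and 1045 CPM, and the 5 activation markers summed to 169, 1163 and 1086 CPM, so the labels of cell type and stimulation matched their markers. Of other cell types, the NK cell, erythroid and platelet markers each stayed under 10 UMIs, while *Cd8b1* gave 28.6, 9.04 and 11.2 CPM with *Cd8a* at no more than 0.29 CPM. The B cell genes *Cd79a* and *Cd79b* summed to 3.31, 0.84 and 1.41 CPM. The myeloid sum of 80.7, 76.5 and 80.5 CPM was almost all *Cst3*, and *Lyz2* had 1, 0 and 0 UMIs. The libraries shared 125, 141 and 207 cell barcodes (unstimulated with CD3/CD28 WT, unstimulated with IFT20-KO, and the CD3/CD28 pair), at most 2.01% of a library's deposited barcodes.

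After 24 h of stimulation the autophagy genes together took a smaller share of the RNA. The groups by role described below hold few genes each, and differences between the groups were not tested. Of the 35 genes, 14 were at least 1.5-fold lower in CD3/CD28 WT than in unstimulated cells, 3 were at least 1.5-fold higher, and 18 lay between. Over all genes the same ratio was passed by 34.9% downward and by 28.3% upward, so the count of lower genes (14 of 35) was near the background and the count of higher genes (3 of 35) was below it. The median log2 ratio of the 35 genes was -0.35, against -0.11 for all 13798 genes with a ratio, and 24 of the 35 lay below the all-gene median. On the scale of UMIs per cell, where the 24 h cells hold more RNA, 10 of the 14 lower genes were higher, and only *Ulk2*, *Atg9a*, *Atg2a* and *Wipi1* were lower on both scales. All statements on direction below are on the CPM scale, as shares of the library's UMIs.

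**Figure D1:**
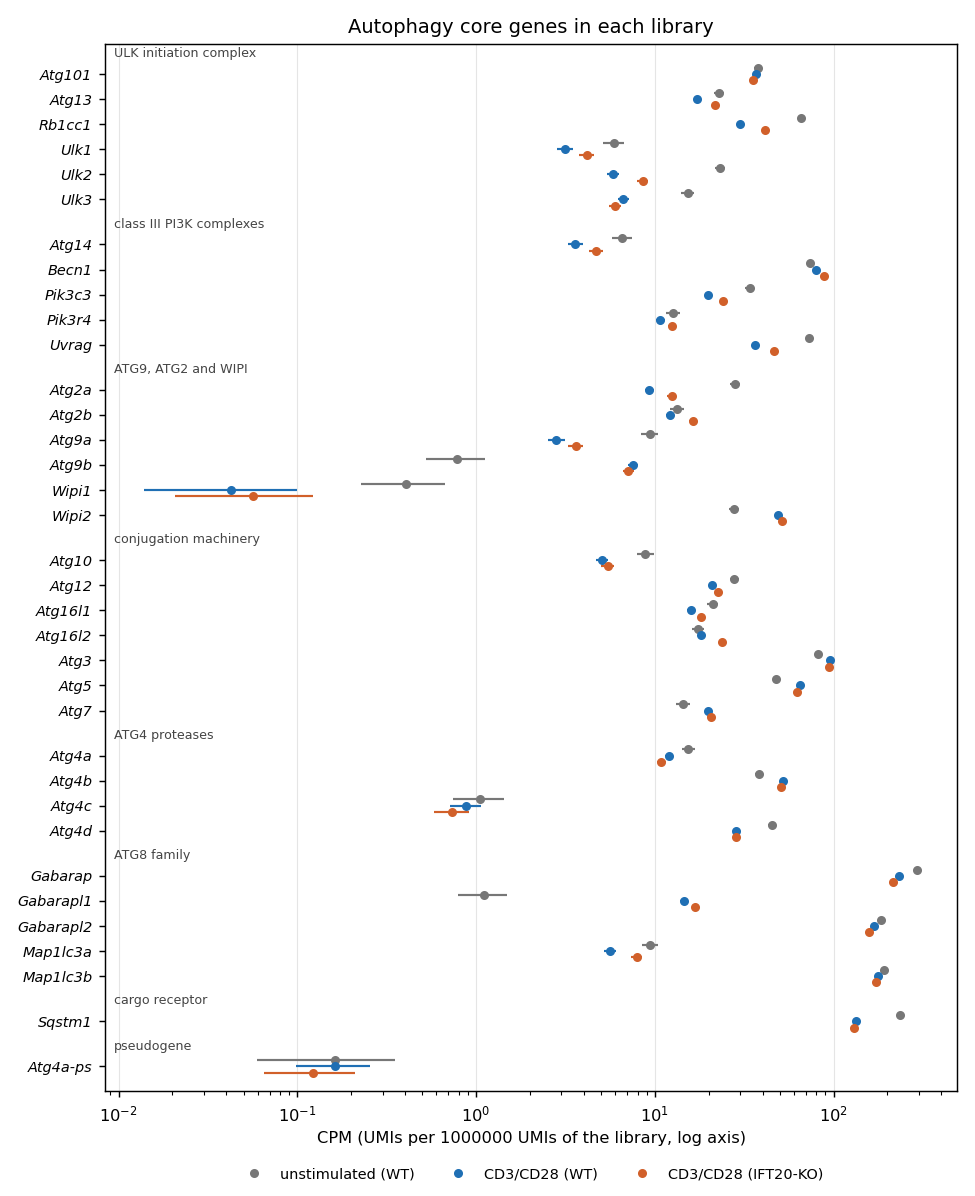
CPM of the 35 autophagy genes on a log axis in the 3 libraries, in groups by role, with points for the library sums and lines for 95% exact Poisson intervals. *Gabarapl1* (1.10, 14.5 and 16.8 CPM) and *Atg9b* (0.78, 7.56 and 7.09 CPM) stood far to the right in both CD3/CD28 libraries, and most initiation genes stood to the left of their unstimulated level.

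In the ULK initiation complex, with *Ulk3* counted in it, 4 of 6 genes were at least 1.5-fold lower and 0 higher, against 34.9% and 28.3% of all genes. The complex consists of a ULK kinase, the scaffold FIP200 (encoded by *Rb1cc1*) and the adaptors ATG13 and ATG101. *Ulk2*, the predominant ULK kinase by UMIs in unstimulated cells, gave 23.1 CPM there, 5.82 in CD3/CD28 WT and 8.54 in IFT20-KO, which made it 3.96-fold lower after stimulation of WT cells (log2 -1.99, 95% interval -2.13 to -1.84). *Rb1cc1* gave 65.5, 29.8 and 41.4 CPM, 2.19-fold lower after stimulation (log2 -1.13, -1.21 to -1.06). *Ulk3*, a relative of the ULK kinases that is also known for a role in Hedgehog signaling, gave 15.2, 6.64 and 5.99 CPM, and *Ulk1*, the best studied kinase of the family, gave 5.87, 3.14 and 4.15 CPM. *Atg13* was lower by less than 1.5-fold (22.9, 17.3 and 21.8 CPM), and *Atg101*, which stabilizes ATG13, was near level (37.8, 37.0 and 35.5 CPM, log2 -0.03, -0.12 to 0.06). Summed over the 3 kinase genes, the ULK level was 44.2 CPM in unstimulated cells, 15.6 in CD3/CD28 WT and 18.7 in IFT20-KO. The kinases did not keep their proportions: *Ulk2* made up 52.2% of ULK UMIs in unstimulated cells (95% Clopper-Pearson interval 49.8 to 54.7%), 37.3% in CD3/CD28 WT (35.1 to 39.6%) and 45.7% in IFT20-KO (43.5 to 47.9%). *Ulk3*, which is counted in this sum, held 34.5%, 42.6% and 32.1%, and *Ulk1* held 13.3%, 20.1% and 22.2%.

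In the lipid kinase that follows, 3 of 5 genes were at least 1.5-fold lower, against 34.9% of all genes. They were the catalytic and both targeting subunits, and beclin 1 was not among them. *Pik3c3*, which encodes the catalytic subunit VPS34, gave 33.9, 19.8 and 24.2 CPM (log2 -0.78 for CD3/CD28 over unstimulated cells). *Becn1* (beclin 1) gave 73.7, 79.4 and 87.9 CPM (log2 0.11, 0.05 to 0.17), and *Pik3r4*, encoding the VPS15 scaffold, gave 12.6, 10.7 and 12.5 CPM (log2 -0.23). The subunits that sort the kinase into alternative complexes are ATG14, for the forming autophagosome, and UVRAG, for endosomes and maturation. *Uvrag* gave 72.7, 36.1 and 46.2 CPM, 2.01-fold lower in CD3/CD28 WT than in unstimulated cells, and *Atg14* gave 6.54, 3.59 and 4.68 CPM, 1.82-fold lower. Because both were lower by a like factor, *Uvrag* kept 91.7%, 91.0% and 90.8% of the UMIs of this pair in the 3 libraries, with overlapping intervals.

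Among the genes for membrane supply, 3 of 6 were at least 1.5-fold lower and 2 higher, against 34.9% and 28.3% of all genes. The ATG9 paralogs differed in direction. *Atg9a* and *Atg9b* encode lipid scramblases of the vesicles that seed the autophagosome. *Atg9a* had 347, 328 and 384 UMIs, or 9.34, 2.80 and 3.61 CPM, and was 3.33-fold lower in CD3/CD28 WT than in unstimulated cells (log2 -1.74, -1.96 to -1.51). *Atg9b* had 29, 884 and 755 UMIs, or 0.78, 7.56 and 7.09 CPM, and was 9.68-fold higher (log2 3.27, 2.74 to 3.86). The sum of the pair was nearly level, at 10.1, 10.4 and 10.7 CPM, while *Atg9b* went from 7.71% of it in unstimulated cells (5.23 to 10.9%) to 72.9% in CD3/CD28 WT (70.3 to 75.4%) and 66.3% in IFT20-KO (63.5 to 69.0%). The end of *Atg9b* overlaps exons of *Nos3* on the other strand (chr5:24384181-24384474, GRCm38), which had 8, 84 and 63 UMIs. Whether the authors' counting used the strand is not given in the sources used here, so reads in that overlap cannot be assigned with certainty, and the same holds for the overlap of *Atg9a* with *Ankzf1*.

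The genes with the strongest ratios in each direction are *Gabarapl1* and *Atg9b* upward and, among genes with at least 100 UMIs, *Ulk2* and *Atg9a* downward, and their promoters are printed for that reason, from 250 bases before to 50 bases after the start of transcription as RefSeq gives it (GRCm38.p6), on the coding strand. They lie at chr6:129532942-129533241 (plus strand) for *Gabarapl1*, chr5:24392094-24392393 (minus) for *Atg9b*, chr1:75191961-75192260 (minus) for *Atg9a* and chr11:61855043-61855342 (minus) for *Ulk2*. Capitals mark a match to the antioxidant response core, which occurs in the *Ulk2* window alone of these 4.
Gabarapl1: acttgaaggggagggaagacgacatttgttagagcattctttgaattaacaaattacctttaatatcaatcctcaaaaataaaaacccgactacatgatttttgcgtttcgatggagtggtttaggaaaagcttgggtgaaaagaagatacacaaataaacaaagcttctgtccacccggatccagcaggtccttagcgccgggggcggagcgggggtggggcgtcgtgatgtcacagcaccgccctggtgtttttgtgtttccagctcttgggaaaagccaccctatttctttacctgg
Atg9b: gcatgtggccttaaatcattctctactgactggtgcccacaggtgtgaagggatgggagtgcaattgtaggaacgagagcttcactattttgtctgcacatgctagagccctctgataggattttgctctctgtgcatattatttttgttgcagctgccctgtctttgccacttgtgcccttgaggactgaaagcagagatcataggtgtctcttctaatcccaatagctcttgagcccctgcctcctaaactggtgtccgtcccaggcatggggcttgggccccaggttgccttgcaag
Atg9a: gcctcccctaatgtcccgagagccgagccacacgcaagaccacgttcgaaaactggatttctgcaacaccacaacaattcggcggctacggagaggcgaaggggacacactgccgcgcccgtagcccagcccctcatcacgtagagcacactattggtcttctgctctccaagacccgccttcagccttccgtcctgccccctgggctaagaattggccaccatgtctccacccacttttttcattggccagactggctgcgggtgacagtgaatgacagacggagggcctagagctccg
Ulk2: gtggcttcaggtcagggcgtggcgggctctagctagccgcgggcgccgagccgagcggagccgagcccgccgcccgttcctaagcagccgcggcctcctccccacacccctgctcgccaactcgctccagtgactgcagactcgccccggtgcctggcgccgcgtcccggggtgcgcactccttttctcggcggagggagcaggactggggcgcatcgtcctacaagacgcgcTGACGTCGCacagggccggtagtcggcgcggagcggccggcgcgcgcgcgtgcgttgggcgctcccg

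The windows differ in base composition. The *Gabarapl1* and *Atg9b* promoters hold 46.3% and 50.7% G or C with 12 and 2 CpG dinucleotides, and the *Atg9a* and *Ulk2* promoters hold 59.3% and 74.7% with 18 and 45. Over the 30 RefSeq promoters of 28 autophagy genes that the table matched by symbol, the median was 20 CpG, against 7 over all 32851 promoters, and *Atg9b* had the fewest of the 30. Motifs were searched on both strands. The E-box CACGTG, the core of sites for TFEB and related factors, occurred in promoters of 4 of the 28 genes (14.3%; *Atg3*, *Atg5*, *Atg7* and *Atg14*), against 8.09% of all genes. The antioxidant response core TGACNNNGC occurred in 3 (10.7%; *Atg13*, *Map1lc3b* and *Ulk2*), against 14.0% of all genes, and the FOXO motif GTAAACA in 0 of 28, against 4.05%. For FOXO only these exact letters were searched, so variants such as the ATAAACA in the *Gabarapl1* window were not counted. These are descriptions of the letters in a short window. The 4 genes with an E-box were not alike after stimulation, with log2 ratios of 0.23, 0.43 and 0.46 for *Atg3*, *Atg5* and *Atg7* and -0.87 for *Atg14*.

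ATG2A and ATG2B are the bridge-like lipid transfer proteins that carry phospholipid from the endoplasmic reticulum. *Atg2a* gave 28.0, 9.31 and 12.4 CPM, 3.01-fold lower in CD3/CD28 WT than in unstimulated cells (log2 -1.59, -1.71 to -1.47), and *Atg2b* gave 13.3, 12.2 and 16.3 CPM (log2 -0.13, -0.28 to 0.02). *Atg2a* thus went from 67.8% of the UMIs of the pair to 43.3% and 43.2%. *Wipi2*, whose product reads the lipid mark and recruits ATG16L1, gave 27.7, 48.8 and 51.3 CPM, 1.76-fold higher (log2 0.82, 0.72 to 0.92). *Wipi1* was scarcely detected, with 15, 5 and 6 UMIs, and its ratio is correspondingly imprecise (log2 -3.24, -5.05 to -1.71).

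In the ubiquitin-like conjugation machinery, 6 of 7 genes differed by less than 1.5-fold, as did 5085 of the 13798 genes with a ratio. It comprises the activating enzyme ATG7, the E2-like enzymes ATG3 and ATG10, the modifier ATG12 with its target ATG5, and ATG16L1 or ATG16L2. *Atg10* was the 1 that was lower (8.83, 5.06 and 5.46 CPM, log2 -0.80). *Atg3* gave 81.3, 95.4 and 93.6 CPM, *Atg5* gave 47.8, 64.5 and 62.6 CPM, and *Atg7* gave 14.4, 19.8 and 20.5 CPM. These 3 genes were each higher in CD3/CD28 WT than in unstimulated cells by less than 1.5-fold, with intervals of the ratio above 0 on the log2 scale. *Atg12* had 1033, 2456 and 2401 UMIs (log2 -0.41). *Atg16l1* gave 21.1, 15.9 and 18.2 CPM and *Atg16l2* gave 17.4, 18.2 and 23.8 CPM, so that *Atg16l1* went from 54.9% of the UMIs of the pair (52.3 to 57.5%) to 46.6% (45.1 to 48.2%) and 43.3% (41.9 to 44.8%). The median log2 ratio of the 7 genes was 0.06, compared with -1.02 for the 6 genes of the initiation complex, -0.78 for the 5 of the lipid kinase and -0.86 for the 6 of membrane supply. The last median describes its genes poorly, since they ranged from -3.24 (*Wipi1*, with few UMIs) to 3.27 (*Atg9b*). Their sum was nearly level, at 79.6 CPM in unstimulated cells and 80.7 in CD3/CD28 WT.

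The ATG4 proteases, which prime ATG8 proteins and release them from membranes, also differed in their proportions. *Atg4b*, the broadest-acting member, gave 38.3, 52.0 and 50.7 CPM (log2 0.44 for CD3/CD28 over unstimulated cells), and *Atg4d* gave 44.9, 28.5 and 28.3 CPM (log2 -0.66). *Atg4b* went from 38.4% to 55.7% of the family's UMIs and *Atg4d* from 45.1% to 30.5%, and in IFT20-KO these shares were 55.9% and 31.2%. *Atg4d* overlaps *Kri1* on the other strand, which had 2437, 5174 and 5335 UMIs against 1669, 3334 and 3011 for *Atg4d*. *Atg4a* had 572, 1409 and 1159 UMIs (log2 -0.35). *Atg4c* had 39, 103 and 78 UMIs and the pseudogene-named *Atg4a-ps* had 6, 19 and 13, and the intervals of both ratios included 0.

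In the ATG8 family the members with the most UMIs differed little between libraries over all kept cells. A member that was scarcely detected in unstimulated cells was far higher after stimulation. *Gabarap* gave 294, 232 and 215 CPM (log2 -0.34, -0.37 to -0.31), *Map1lc3b* gave 190, 176 and 174 CPM (log2 -0.11, -0.15 to -0.07), and *Gabarapl2* gave 183, 167 and 158 CPM (log2 -0.13, -0.17 to -0.09). These 3 genes made up nearly all the family's UMIs, and their levels differed between unstimulated cells and CD3/CD28 WT by less than 1.5-fold. *Gabarapl1* had 41 UMIs in unstimulated cells and 1701 and 1793 in the CD3/CD28 libraries, that is 1.10, 14.5 and 16.8 CPM, 13.2-fold higher in CD3/CD28 WT than in unstimulated cells (log2 3.72, 3.27 to 4.20), the highest ratio among the 35 genes. It still held only 0.16%, 2.44% and 2.95% of the family's UMIs. *Map1lc3a* gave 9.43, 5.64 and 7.89 CPM, 1.67-fold lower in CD3/CD28 WT than in unstimulated cells (log2 -0.74, -0.93 to -0.55). The family's sum was 677, 596 and 571 CPM. *Sqstm1*, which encodes the cargo receptor p62 and is itself degraded with its cargo, gave 236, 133 and 131 CPM, 1.78-fold lower (log2 -0.83, -0.87 to -0.79).

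**Figure D2:**
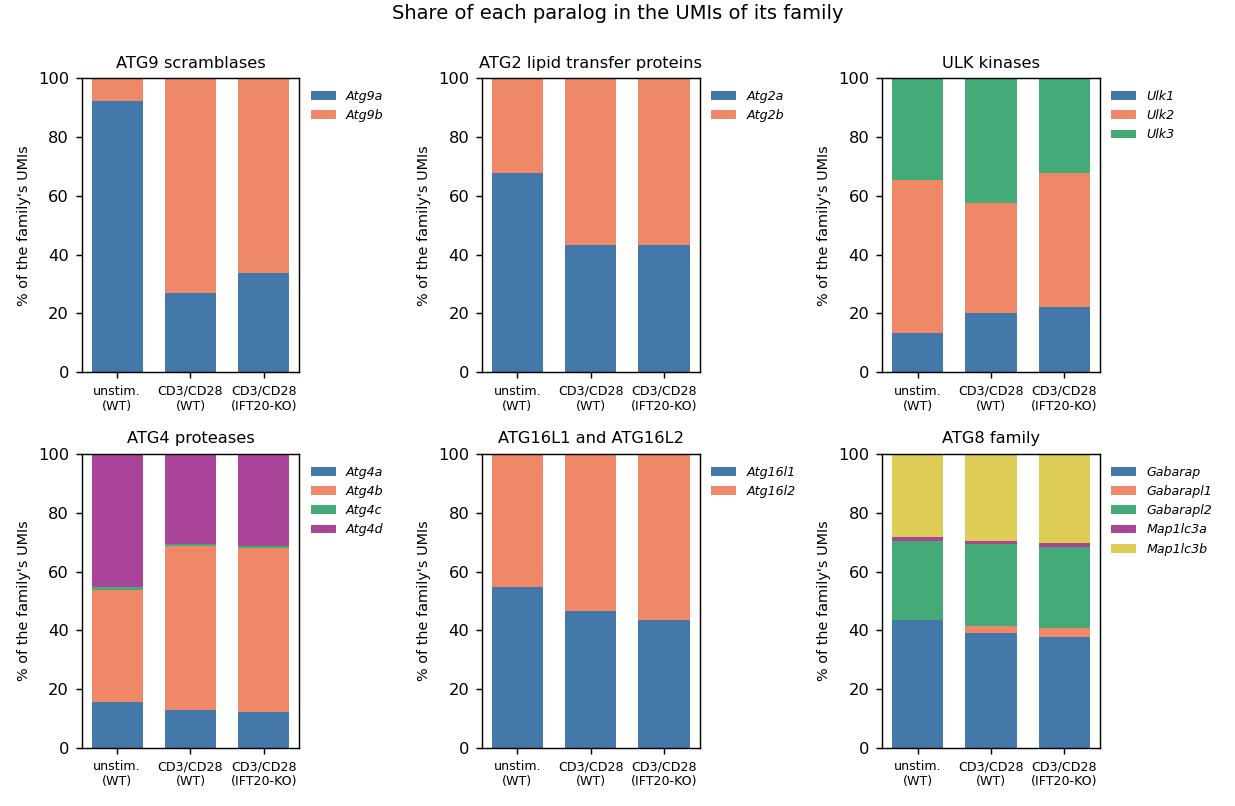
Share of each paralog in the UMIs of its family (percent, stacked bars from 0 to 100) in the 3 libraries (unstim. is unstimulated), for 6 families. *Atg9b* went from 7.71% to 72.9% and 66.3% of the ATG9 UMIs and *Atg2a* from 67.8% to 43.3% and 43.2% of the ATG2 UMIs, while *Gabarap*, *Gabarapl2* and *Map1lc3b* fill the ATG8 bar in every library.

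The libraries of CD3/CD28 WT and IFT20-KO were compared next, to ask how the loss of IFT20 bears on these genes in stimulated cells. This comparison shares the CD3/CD28 WT library with the preceding one, so these ratios and the earlier ones are not independent. The targeted gene *Ift20* gave 64.4, 76.0 and 6.60 CPM (2390, 8885 and 703 UMIs), 11.5-fold lower in IFT20-KO than in WT, as the label of that library says. None of the 35 autophagy genes differed by 1.5-fold in either direction, where 13.9% of all genes were at least 1.5-fold higher and 3.86% lower. The median log2 ratio of the 35 genes was 0.11, against 0.14 for all 13791 genes with a ratio, and 18 of the 35 lay below the all-gene median. In UMIs per cell every one of the 35 was lower in IFT20-KO, with a median log2 ratio of -0.52 against -0.49 for all genes.

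All of these differences were within 1.5-fold. The interval of the log2 ratio lay above 0 in 18 of the 35 genes, against 44.3% of all genes, and below 0 in 3, against 15.7% of all genes, so the share above 0 was near the background; it included 0 in 14. The highest ratios were those of *Ulk2* (log2 0.55, 0.41 to 0.70), *Map1lc3a* (0.48, 0.34 to 0.63), *Rb1cc1* (0.47, 0.41 to 0.54), *Atg2b* (0.42) and *Atg2a* (0.41). All 5 genes of the lipid kinase had intervals above 0, with a median of 0.29, among them *Uvrag* at 0.35 and *Atg14* at 0.38. The median was 0.37 in the initiation complex, where *Ulk3* (-0.15) and *Atg101* (-0.06) were the exceptions to the sign, and 0.38 in membrane supply. The medians were 0.10 for conjugation, -0.09 for the ATG4 proteases and -0.02 for the ATG8 family. *Gabarap* (log2 -0.11), *Gabarapl2* (-0.09) and *Atg4a* (-0.15) had intervals below 0. *Atg9b* (-0.09, -0.23 to 0.05), *Sqstm1* (-0.02, -0.06 to 0.01) and *Map1lc3b* (-0.02, -0.05 to 0.00) had intervals that included 0, and *Gabarapl1* was slightly higher in IFT20-KO (0.21, 0.12 to 0.31).

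**Figure D3:**
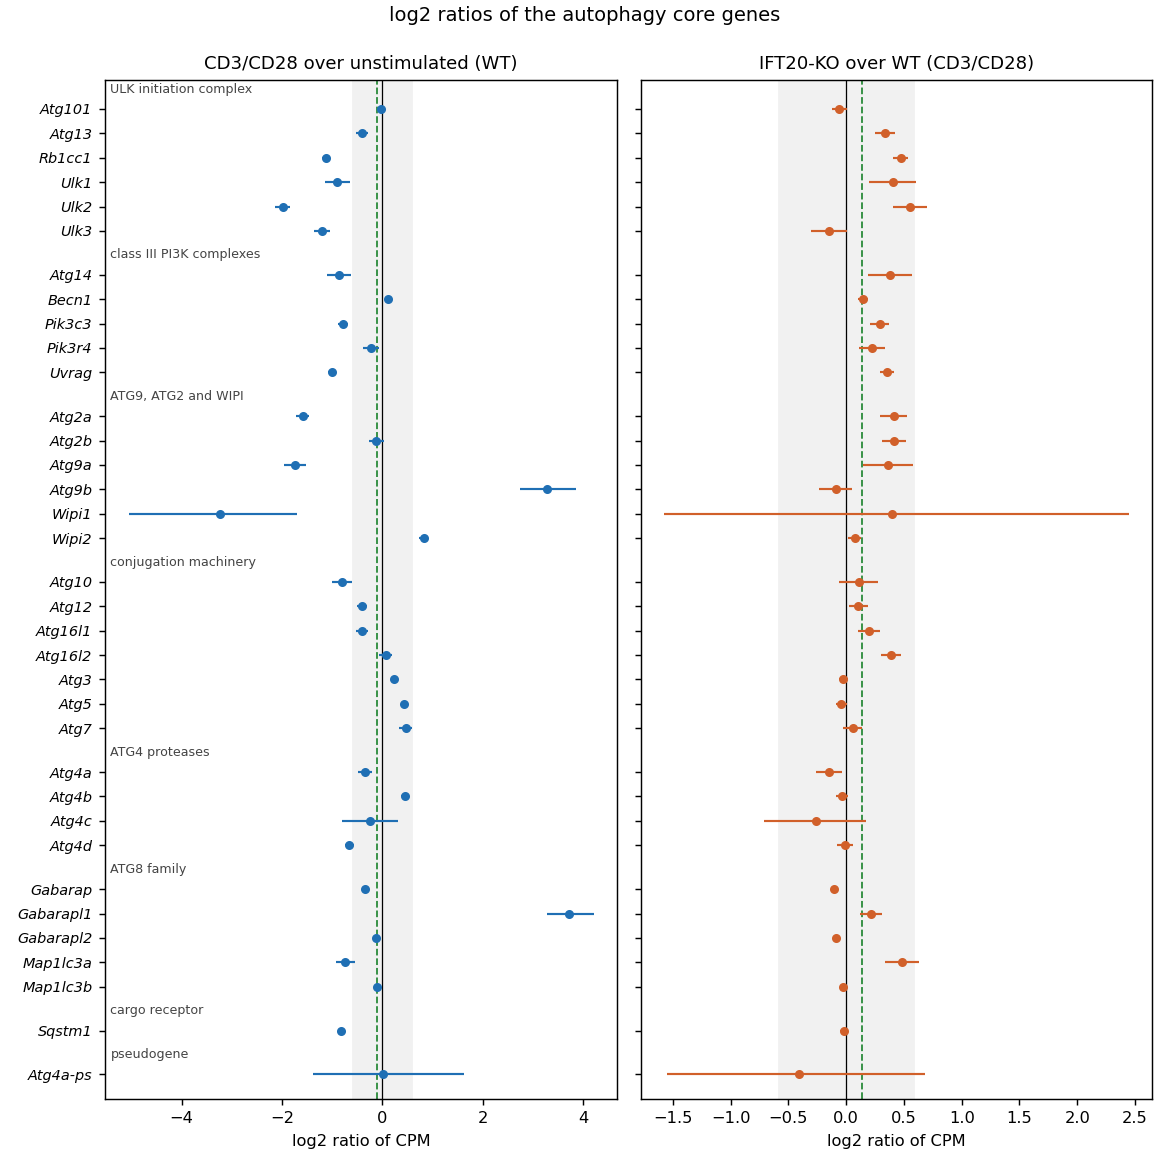
log2 ratio of CPM for the 35 genes, CD3/CD28 over unstimulated WT cells at left and IFT20-KO over WT in CD3/CD28 cells at right, on different axes. Points are ratios, lines are 95% intervals for counting error, the grey band spans ratios under 1.5-fold and the dashed line is the all-gene median (-0.11 and 0.14). At right all 35 points stay within the band.

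Cells with few UMIs carried a different mix of these genes, and their number differed between the libraries. Cells with under 4000 UMIs were 33.1% of the unstimulated library, 23.2% of CD3/CD28 WT and 47.8% of IFT20-KO, and held 18.3%, 3.75% and 15.5% of the UMIs. In the CD3/CD28 libraries these cells had a high median share of mitochondrial UMIs, 10.3% in WT and 5.67% in IFT20-KO. Cells with at least 4000 UMIs there had 1.26% and 1.08%. In unstimulated cells the values were 2.79% and 2.25%, but the cut lies close to their median of 4627 UMIs. The 1052 unstimulated cells with under 2500 UMIs, 13.1% of that library, had a median mitochondrial share of 9.40%. Under 2500 UMIs it was 10.3% in CD3/CD28 WT and 5.43% in IFT20-KO. Within CD3/CD28 WT, the low-UMI cells held more *Ulk2* (log2 2.43 over the other cells), *Uvrag* (2.38), *Atg2b* (2.31), *Rb1cc1* (2.29), *Atg16l1* (2.15) and *Atg2a* (2.11) on the CPM scale. All 5 ATG8 genes went the other way, with *Gabarap* at -1.23, *Gabarapl1* at -1.22, *Map1lc3a* at -1.34, *Map1lc3b* at -0.94 and *Gabarapl2* at -0.82. Of the 35 genes, 18 had an interval above 0 and 9 below 0, against 51% and 17% of all genes, and the median log2 ratio of all genes was 0.96. In IFT20-KO the same split was present at smaller size, with *Ulk2* at 1.80, *Uvrag* at 1.79 and *Gabarap* at -0.70. In unstimulated cells, 24 of the 35 genes had an interval above 0 and 0 below, against 37.8% and 4.91% of all genes. The median log2 ratio there was 0.31 for the 35 genes and 0.25 for all genes. Whether an interval clears 0 also depends on a gene's UMIs, so these shares are not a measure of size. *Rb1cc1* was at 0.72 and *Uvrag* at 0.69, and *Gabarap* (-0.04, -0.11 to 0.03) was near level.

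**Figure D4:**
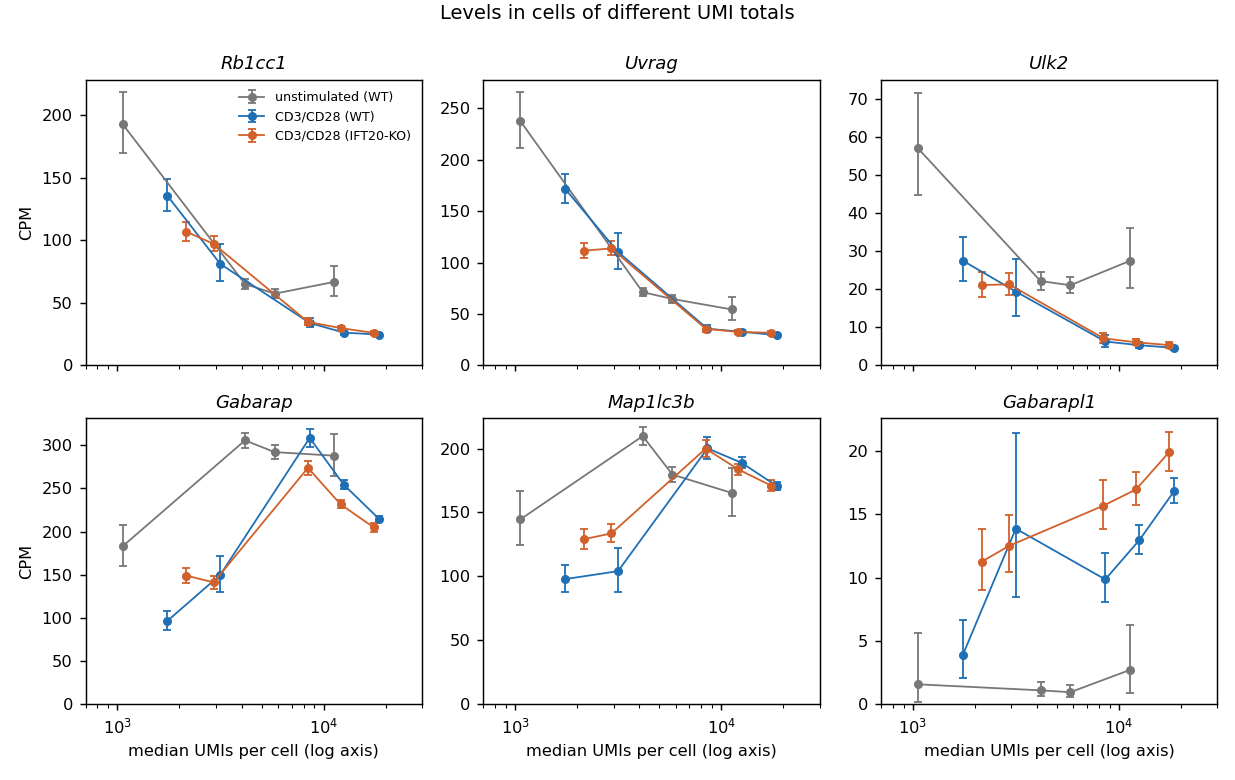
CPM of 6 autophagy genes against the median UMIs per cell (log axis) in cells grouped by total UMIs (limits at 2500, 5000, 10000 and 15000), with 95% Poisson intervals for counting error. The 16 cells of the unstimulated library with the highest totals are left out. *Rb1cc1*, *Uvrag* and *Ulk2* are lower in cells with more UMIs in both CD3/CD28 libraries, *Gabarap* and *Map1lc3b* are low there in the cells with the fewest UMIs, and *Gabarapl1* stays under 3 CPM in unstimulated cells throughout.

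The ratio of IFT20-KO to WT was therefore also taken separately in cells with at least and with under 4000 UMIs. Totals still differed within each range. The medians of WT and IFT20-KO were 13951.5 and 11693 UMIs in the upper range and 1828 and 2419 in the lower. In cells with at least 4000 UMIs the median log2 ratio of the 35 genes was 0.01, against 0.05 for all genes, and the range was -0.43 to 0.51. Intervals lay above 0 in 13 of the 35 and below 0 in 6, against 29.4% and 16.5% of all genes, and included 0 in 16. *Rb1cc1* went from 0.47 over all cells to 0.20, *Uvrag* from 0.35 to 0.10, *Ulk2* from 0.55 to 0.31, *Atg2b* from 0.42 to 0.15 and *Atg16l1* from 0.20 to -0.08. *Map1lc3a* (0.51) and *Gabarapl1* (0.26) kept the size they had over all cells. In cells with under 4000 UMIs the median over 33 genes with a ratio was -0.10, against -0.07 for all genes. *Uvrag* (-0.49), *Rb1cc1* (-0.30) and *Ulk2* (-0.33) were lower in IFT20-KO there, the opposite of their direction over all cells. *Gabarap* (0.48, 0.33 to 0.63) and *Gabarapl2* (0.21, 0.06 to 0.37) were higher there, also the opposite of their direction over all cells. *Map1lc3b* (0.47, 0.32 to 0.63), near level over all cells, was higher there too. There *Map1lc3a* (1.44, from 10 and 102 UMIs), *Gabarapl1* (0.88) and *Ulk1* (0.60, interval -0.09 to 1.37) passed 1.5-fold upward. The part that the share of low-UMI cells has in the ratios over all cells beyond these values was not tested.

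**Figure D5:**
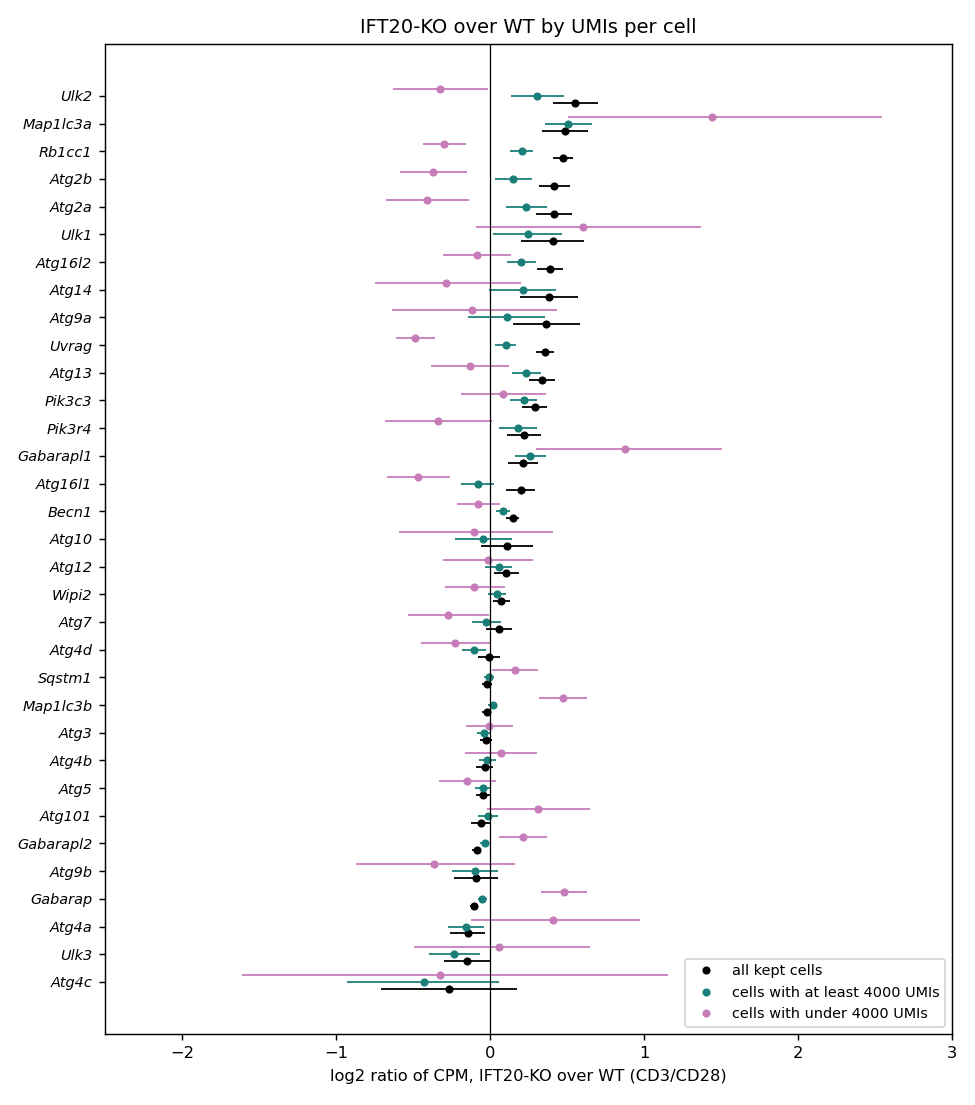
log2 ratio of CPM, IFT20-KO over WT in CD3/CD28 cells, for 33 autophagy genes (*Wipi1* and *Atg4a-ps* are left out for few UMIs) in all kept cells, in cells with at least 4000 UMIs and in cells with under 4000 UMIs. Lines are 95% intervals for counting error. *Ulk2*, *Rb1cc1*, *Uvrag*, *Atg2a* and *Atg2b* lie right of 0 over all cells, closer to 0 in cells with at least 4000 UMIs and left of 0 in cells with under 4000 UMIs.

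The ratios of CD3/CD28 WT over unstimulated cells were taken within the same ranges. The medians of unstimulated and CD3/CD28 WT cells were 5210 and 13951.5 UMIs in the upper range and 2988 and 1828 in the lower. The median mitochondrial share in the lower range was 2.79% and 10.3%, so the cells compared there were unlike in this respect too. In cells with at least 4000 UMIs the median log2 ratio of the 35 genes for CD3/CD28 over unstimulated cells was -0.32, against -0.12 for all genes. Of the 35 genes, 25 lay below 0, where the all-gene median also lay. Below the all-gene median lay 20 of the 35, against 24 over all cells. Among cells with under 4000 UMIs the median of the autophagy genes was -0.13, against 0.36 for all genes. There *Rb1cc1* (0.40), *Uvrag* (0.63) and *Atg14* (0.40), which were at least 1.5-fold lower over all cells, had ratios above 0. So did *Atg2b* (1.29), *Atg16l1* (1.19), *Atg13* (0.34) and *Pik3r4* (0.27), which were lower over all cells by less than 1.5-fold. *Atg13* and *Pik3r4* lay below the all-gene median of these cells, and *Rb1cc1* and *Atg14* lay near it. No intervals were taken for these ratios. *Atg14* had only 60 and 51 UMIs there in unstimulated and CD3/CD28 WT cells, and *Pik3r4* had 121 and 94. *Ulk2* was at -0.13 in the low-UMI cells and -2.12 in the other cells, *Atg2a* at -0.31 and -1.56, and *Atg9a* at -0.65 and -1.69. The ATG8 genes with the most UMIs were near level only in the other cells. *Gabarap* was at -1.50 in the low-UMI cells and -0.31 in the others, *Map1lc3b* at -1.17 and -0.04, and *Gabarapl2* at -1.02 and -0.08. *Map1lc3a* was at -2.19 and -0.67, with 71 and 10 UMIs in the low-UMI cells of the unstimulated and CD3/CD28 WT library. *Gabarapl1* had 7 and 28 UMIs in the low-UMI cells of the unstimulated and the CD3/CD28 WT library, or 1.03 and 6.39 CPM. In the other cells it had 34 and 1673 UMIs, or 1.12 and 14.9 CPM, so it was higher after stimulation in both kinds of cells.

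In unstimulated cells, the 343 cells with a *Foxp3* UMI, the factor of regulatory T cells, were set against the 7688 without. The interval of the log2 ratio included 0 for all 35 genes, where it lay above 0 in 9.87% and below 0 in 4.54% of all genes. In CD3/CD28 WT this split gave 0 genes above 0 and 1 below, *Atg16l2* (-0.57, -1.16 to -0.03). In IFT20-KO it gave 3 above and 2 below, with *Atg16l2* at -0.52 (-0.96 to -0.11). The all-gene shares of the stimulated splits are not given here. In CD3/CD28 WT, the 470 cells that held a UMI of the naive marker *Il7r* differed from the others beyond counting error in 3 of 35 genes, *Uvrag* (0.36) and *Sqstm1* (0.11) upward and *Wipi2* (-0.27) downward, against 12.3% of all genes upward and 9.07% downward. In the *Il7r* cells of IFT20-KO none of these 3 differed beyond counting error, with *Uvrag* at 0.14 (-0.07 to 0.35), *Sqstm1* at -0.05 (-0.18 to 0.08) and *Wipi2* at -0.08 (-0.29 to 0.13). The 473 cycling cells of CD3/CD28 WT, with at least 5 UMIs over 6 mitotic genes, had 3 of the 35 genes above and 9 below the other cells, against 21% and 14% of all genes, with *Ulk2* at 0.55, *Gabarapl1* at 0.52, *Atg9b* at 0.36, *Atg2b* at -0.48, *Sqstm1* at -0.28 and *Map1lc3b* at -0.26. In the 535 cycling cells of IFT20-KO, *Gabarapl1* was higher (0.47) and *Atg2b*, *Sqstm1* and *Map1lc3b* were lower (-0.65, -0.32 and -0.22), while the intervals of *Ulk2* (-0.16, -0.57 to 0.22) and *Atg9b* (0.18, -0.22 to 0.56) included 0. Cycling cells held more UMIs than the others, with medians of 19590 against 11930.5 in WT, so depth differed along with the phase.

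Genes around the core were counted from lists of other autophagy factors, of mTORC1 and AMPK signaling, of transcription factors that act on autophagy genes, and of lysosomal proteins. Of 31 other autophagy factors with at least 10 UMIs, 15 were at least 1.5-fold lower and 4 higher in CD3/CD28 WT than in unstimulated cells (median log2 ratio -0.56), against 34.9% lower and 28.3% higher over all genes. The cargo receptors *Nbr1* (29.5 to 10.7 CPM), *Calcoco1* (27.5 to 11.7 CPM), *Tollip* (15.1 to 6.94 CPM) and the ER-phagy receptor *Ccpg1* (34.3 to 6.16 CPM) were lower, as was *Tecpr1*, which acts in autophagosome maturation and went from 204 to 30.1 CPM. The 4 that were higher were the mitophagy receptors *Bnip3* (5.87 to 33.7 CPM) and *Phb2* (177 to 566 CPM), the latter a prohibitin of the inner mitochondrial membrane, and the endoplasmic reticulum genes *Vmp1* (40.8 to 78.7 CPM) and *Ei24* (30.5 to 73.4 CPM). *Optn* alone was at least 1.5-fold higher in IFT20-KO than in CD3/CD28 WT, at 0.45 against 0.21 CPM, and 0 were lower, where 13.9% of all genes were higher and 3.86% lower.

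Of 32 mTORC1 and AMPK genes measured, 9 were at least 1.5-fold higher and 5 lower after stimulation (median log2 ratio -0.05), where 28.3% of all genes were higher and 34.9% lower. Among the 9 were *Sesn2*, a stress-induced inhibitor of mTORC1 (2.40 to 19.8 CPM), and *Rheb*, the direct activator of mTORC1 (94.5 to 149 CPM). *Tbc1d7*, a subunit of the TSC complex (4.96 to 15.9 CPM), and *Lamtor5*, of the Ragulator scaffold (62.8 to 103 CPM), were also higher. The rest were *Akt1s1* (17.7 to 30.0 CPM), *Rraga* (45.2 to 68.8 CPM), *Rragb* (3.29 to 4.94 CPM), *Fnip1* (13.7 to 25.9 CPM) and *Fnip2* (6 and 80 UMIs). Downward were the inhibitors *Sesn1* (82.5 to 15.6 CPM) and *Ddit4* (285 to 116 CPM), the AMPK subunits *Prkaa1* (16.1 to 7.22 CPM) and *Prkab1* (44.2 to 22.2 CPM), and *Castor1*, which encodes an arginine sensor that inhibits mTORC1 and is listed under its older symbol *Gatsl3* (21.4 to 9.04 CPM). *Mtor* was at 13.0 and 14.2 CPM. In IFT20-KO, 5 of the 32 were at least 1.5-fold higher than in CD3/CD28 WT and 0 lower, against 13.9% and 3.86% of all genes, with *Sesn1* at 24.6 against 15.6 CPM and *Rptor* at 23.1 against 15.1 CPM.

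Of 11 transcription factors, 5 were at least 1.5-fold lower and 3 higher after stimulation, against 34.9% and 28.3% of all genes. *Foxo1*, which maintains naive T cells and can activate autophagy genes, went from 297 to 64.3 CPM, *Nfe2l2* (NRF2) from 76.1 to 21.2 CPM, *Mitf* from 5.25 to 1.03 CPM, *Foxo4* from 8.02 to 3.65 CPM, and *Tfeb*, the regulator of lysosomal genes, from 15.3 to 9.72 CPM. *Hif1a* (49.0 to 219 CPM), *Atf4* (69.3 to 201 CPM) and *Xbp1* (42.7 to 115 CPM) were the 3 that were higher. Of 35 lysosomal genes, 15 were lower and 4 higher (median log2 ratio -0.41), against the same 34.9% and 28.3%. Lower were the hydrolases *Ctsd* (223 to 98.5 CPM), *Ctss* (142 to 46.2 CPM) and *Lipa* (93.4 to 19.7 CPM), the saposin precursor *Psap* (284 to 103 CPM) and the cholesterol carrier *Npc2* (797 to 432 CPM), and higher were *Ctsz* (35.4 to 76.5 CPM), *Gusb* (33.6 to 75.6 CPM), *Gla* (2.18 to 5.04 CPM) and *Cd63* (1 and 15 UMIs, log2 2.25, -0.45 to 7.65). Of 15 lysosomal genes that were lower, 2 encode subunits or accessory proteins of the proton pump, *Atp6v1d* and *Atp6ap1*. In IFT20-KO, 3 of the 35 lysosomal genes were at least 1.5-fold higher than in CD3/CD28 WT and 0 were lower. They were *Npc1* (14.1 against 7.09 CPM), *Ctsl* (4.75 against 3.09 CPM) and *Lamp2* (15.7 against 10.4 CPM). Of the 11 transcription factors, *Mitf* and *Zkscan3* were at least 1.5-fold higher and 0 lower. Over all genes 13.9% were higher and 3.86% lower by this measure.

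The 35 genes lie on 19 chromosomes in GENCODE M21 (GRCm38), with 5 on chromosome 11 (*Sqstm1*, *Ulk2*, *Gabarap*, *Becn1* and *Wipi1*), whose ratios after stimulation differed in sign. For 12 of the 35, an exon overlaps an exon of another gene in the files, in 0 cases on the same strand. Besides those named above, *Rb1cc1* overlaps the antisense gene *4732440D04Rik* (386, 626 and 1174 UMIs), and *Sqstm1* overlaps *Mrnip* (173, 648 and 801 UMIs against 8768, 15523 and 13901 for *Sqstm1*). *Atg2b* overlaps *Gskip* (1107, 2949 and 2619 UMIs against 495, 1426 and 1731 for *Atg2b*). *Atg16l2* overlaps *Fchsd2* (1243, 836 and 1242 UMIs against 645, 2124 and 2529 for *Atg16l2*). Reads in these overlaps cannot be assigned with certainty, which also limits the shares within the ATG2 and ATG16L pairs.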

How the data were processed

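RNA of sorted mouse spleen CD4+ T cells was measured in 3 single-cell libraries, 1 each for unstimulated WT, CD3/CD28 WT and CD3/CD28 IFT20-KO. The deposited files hold counts of UMIs per gene and barcode, without normalization, which the authors made with Cell Ranger (3.1.0 per the file headers) on mm10. The methods name a 3′ kit and the labels a 5′ kit. The filter of the methods, over 200 genes and mitochondrial UMIs below 15%, was applied, and no doublets were removed. UMIs were summed per library and expressed as CPM, not divided by gene length because a UMI marks an end of a molecule; capture may differ between genes, so shares within a family are shares of UMIs. Intervals (95%) are exact Poisson for CPM and Clopper-Pearson for shares and for the split of UMIs behind a ratio. A count of 0 was set to 3, and genes at or under 3 in both libraries got no ratio.

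The genes and lists were chosen with earlier results of these data known. Every autophagy gene is named, in full if past 1.5-fold with at least 100 UMIs, of the ATG8 family or at 50 CPM or more. List genes are named if past 1.5-fold with at least 100 UMIs, though not all are reported. *Optn*, *Cd63*, *Mtor*, *Fnip2*, *Ankzf1*, *Kri1*, *Mrnip*, *4732440D04Rik*, *Nos3*, *Gskip* and *Fchsd2* were named after their values were seen.

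Alternatives were all barcodes, more than 1000 genes with under 10% mitochondrial UMIs, at least or under 4000 UMIs, cells thinned to 1400 UMIs, median-ratio scaling, UMIs per cell, the mean of per-cell fractions and a minimum of 200 UMIs per gene. Under 4000 UMIs was added after seeing the data. The calculation was tested on simulated data. Python 3.11.15, numpy 2.4.6, scipy 1.17.1, pandas 2.3.3 and matplotlib 3.10.9 were used. A plan to show ATG8 protein sequences was dropped because no protein table was used here.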

Additional observations from a re-analysis of the deposited data

How the results depend on the processing

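No paired analysis was possible because each condition has 1 library, and no library could be left out. The median log2 ratio of CD3/CD28 over unstimulated WT cells (-0.35) stayed negative with all barcodes, the stricter filter, at least 4000 UMIs and per-cell fractions, was -0.13 in cells with under 4000 UMIs, and was -0.24 both with thinning and with median-ratio scaling. In UMIs per cell it was 1.00. Relative to the all-gene median it was -0.25 in the main setting, with median-ratio scaling and in UMIs per cell. This difference was -0.39 with thinning, -0.49 under 4000 UMIs and -0.20 with at least 4000 UMIs, and the other settings lay between the last 2 values. The numbers of genes at least 1.5-fold higher and lower (3 and 14) were 5 and 9 with thinning and 23 and 2 in UMIs per cell, and 8 were higher under 4000 UMIs. The all-gene medians were 0.15, 1.25 and 0.36 under these settings. The shares of all genes past 1.5-fold under them are not given here, so these counts do not set the autophagy genes apart from all genes. In UMIs per cell 31 of 35 log2 ratios were above 0. Of the genes at least 1.5-fold lower, they turned positive there for *Rb1cc1* (0.22), *Map1lc3a* (0.61), *Ulk1* (0.45), *Uvrag* (0.34), *Atg14* (0.49), *Atg4d* (0.70), *Ulk3* (0.15), *Sqstm1* (0.52), *Atg10* (0.55) and *Pik3c3* (0.58), and under 4000 UMIs for *Rb1cc1* (0.40), *Uvrag* (0.63) and *Atg14* (0.40). Of the genes lower by less than 1.5-fold, *Atg2b* (1.29), *Atg16l1* (1.19), *Atg13* (0.34) and *Pik3r4* (0.27) also turned positive under 4000 UMIs. Others of these passed 1.5-fold downward there, namely *Gabarap* (-1.50), *Map1lc3b* (-1.17), *Gabarapl2* (-1.02), *Atg4a* (-1.03) and *Atg101* (-1.03). The set of lower genes thus also changed under 4000 UMIs. No intervals were taken for the ratios under 4000 UMIs, where the all-gene median was 0.36 and *Atg14* had 60 and 51 UMIs.

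The median of IFT20-KO over WT (0.11) was 0.015 in cells with at least 4000 UMIs, -0.10 under 4000 UMIs, -0.055 with median-ratio scaling and -0.52 in UMIs per cell. Relative to the all-gene median it lay between -0.03 and 0.02 under these alternatives. The count of genes at least 1.5-fold higher (0) was 2 with the stricter filter, 3 under 4000 UMIs, 2 with thinning and 2 with per-cell fractions. The all-gene medians under these settings were 0.16, -0.07, 0.18 and 0.15. The count of lower genes (0) was 14 in UMIs per cell, where the all-gene median was -0.49, and 1 with per-cell fractions. The shares of all genes past 1.5-fold under these settings are not given here either. Leaving aside UMIs per cell and cells under 4000 UMIs, 28 of 35 genes kept their sign for stimulation and 23 of 35 for IFT20-KO. In UMIs per cell the all-gene medians were 1.25 and -0.49; the cause of the other shifts was not tested. Genes under about 100 UMIs, such as *Wipi1* and *Atg4a-ps*, are limited by counting.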
